A study of Mus musculus with 12 samples.

Results

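The histone chaperone genes *Chaf1a*, *Chaf1b*, *Nasp*, *Asf1b*, *Ipo4*, *Supt16*, *Ssrp1*, *Nap1l1*, *Nap1l4* and *Hjurp* were followed across RNA-seq libraries of embryonic hearts with or without conditional deletion of *Hira*. They are 10 of the 20368 genes in the table, were chosen by name for what their proteins do, and all 10 passed the filter on low levels in each comparison. None of the 10 passed the test for a change between genotypes or between stages. In the hearts labelled Mutant, *Asf1b* was the member with the largest difference at E12.5, 1.17-fold higher than in controls, and that difference did not pass correction over all genes.

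The hearts came from CD1 mice at E11.5 and E12.5, with 3 libraries in each of 4 groups. Cre control hearts were *Mesp1Cre*;*Hira*+/fl and Mutant hearts were *Mesp1Cre*;*Hira*-/fl, so both genotypes carry the Cre and 1 floxed *Hira* allele, and the Mutant carries a constitutive null allele in place of the wild-type one. *Mesp1Cre* is active in early mesoderm, which gives most of the heart, and heart cells of other origin, such as neural crest, keep their floxed allele. The libraries are of whole hearts, so fewer cells of a type and less RNA per cell cannot be told apart. The number of hearts behind a library is not given in the sources used here, and the p-values therefore measure the spread between these libraries.

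Histone chaperones escort newly made or recycled histones and place them on DNA. HIRA, with its partners, deposits the variant H3.3 independently of DNA synthesis. The members listed here serve other routes. CAF-1, whose large and middle subunits are encoded by *Chaf1a* and *Chaf1b*, binds the sliding clamp PCNA and deposits H3.1-H4 behind the replication fork. NASP keeps a reserve of soluble H3-H4, ASF1B hands H3-H4 to CAF-1, and IPO4 is an importin that carries H3-H4 with ASF1 into the nucleus. SUPT16 and SSRP1 form FACT, which loosens and rebuilds nucleosomes ahead of polymerases. NAP1L1 and NAP1L4 belong to the nucleosome assembly protein family and bind H2A-H2B, and HJURP deposits the centromeric variant CENP-A. A question put to these genes was whether other chaperones differed in level in the Mutant hearts.

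The libraries held 11994148 to 17483982 counts on genes. *Hira* itself, at 17.5, 18.8 and 15.1 RPKM in E11.5 Cre control hearts and 16.4, 12.5 and 13.99 RPKM in E11.5 Mutant hearts, differed by -0.26 ± 0.14 on the log2 scale (SE, adjusted p = 0.607). At E12.5 it was -0.01 ± 0.12 (SE, adjusted p = 0.962). The counts cover the whole gene, so reads from exons outside the excised segment enter them, and they do not check the labels. The paper reports recombination by PCR on limb DNA, fewer reads of the targeted exon in its RNA-seq and less HIRA protein in older Mutant hearts. All 15 cardiomyocyte markers were measured, with a summed level of 27588 to 37076 CPM (counts scaled to the library's depth) across the 12 libraries. The summed markers of 5 other lists did not overlap between genotypes at each stage. At E11.5, Mutant hearts were lower for macrophage (16.2 to 20.6 against 38.8 to 100.3 CPM), cushion mesenchyme (2870 to 3992 against 4466 to 4980 CPM) and epicardial markers (667 to 709 against 740 to 1043 CPM), and higher for endothelial (1469 to 2063 against 1211 to 1451 CPM) and neural markers (20.3 to 36.3 against 13.0 to 18.8 CPM). At E12.5 they were lower for erythroid (2118 to 2743 against 3842 to 6403 CPM), macrophage (54.2 to 72.6 against 96.1 to 127 CPM) and cushion mesenchyme markers (4373 to 4885 against 5080 to 6026 CPM), and higher for epicardial (698 to 745 against 459 to 665 CPM) and neural markers (15.8 to 24.2 against 9.69 to 10.6 CPM). The epicardial markers did not move as 1 set. At E11.5, 3 of the 10 had a log2 fold change above 0, among them *Krt19* at 145 CPM in Mutant against 92.1 CPM in Cre control hearts. At E12.5, 8 of the 10 did, with *Krt8* at 48.7 against 17.5 CPM, while *Wt1* stood at 42.3 against 43.9 CPM. By edgeR's adjusted p, 1 of 8 macrophage markers was lower at E11.5. At E12.5, 7 of 10 erythroid, 4 of 8 macrophage and 4 of 11 cushion mesenchyme markers were lower, and 4 of 10 epicardial, 1 of 10 endothelial and 2 of 3 neural markers (*Prph* and *Tubb3*) were higher. The library E11.5 Mutant 3 stood apart. It had the fewest counts, and 128 of 8751 genes (1.46%) lay at least 2-fold outside both other libraries of its group, 117 of them below, against 0.366% at most in any other library. The part of these differences in the chaperone values was not tested. From Y-linked genes, all 3 E11.5 Cre control libraries and 1 of 3 E11.5 Mutant libraries (number 3) were male, with 1 male library of 3 in each E12.5 group.

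Per length, the chaperones spanned a wide range of levels in the heart. *Nap1l1* was highest, with 182 to 333 RPKM (counts scaled to library depth and to the length of the gene, so that genes can be compared) over the 12 libraries, above every library's value of any other member. *Nap1l4* (133 to 153 RPKM), *Ssrp1* (111 to 137 RPKM) and *Nasp* (103 to 141 RPKM) followed, and their ranges overlapped. *Supt16* (20.7 to 48.2 RPKM), *Ipo4* (31.1 to 40.0 RPKM) and *Chaf1b* (29.0 to 36.8 RPKM) overlapped in the same way, *Asf1b* (21.8 to 36.4 RPKM) overlapped with *Chaf1b* above it and *Chaf1a* (17.9 to 22.7 RPKM) below it, and *Hjurp* was lowest at 10.6 to 15.01 RPKM, apart from *Chaf1a*. The FACT subunits differed in level, *Ssrp1* standing at 123 ± 7.88 RPKM and *Supt16* at 39.6 ± 7.88 RPKM (SD, n = 12 libraries). This order rests on the lengths used, such as 8439 bases for *Hjurp* and 1599 for *Asf1b*. The lengths of *Chaf1b* and *Nasp*, 1913 and 3155 bases, are under their 4681 and 7518 exonic bases in GENCODE. Without length, *Hjurp* averaged 111 CPM, above *Chaf1a* (66.8 CPM), *Chaf1b* (62.1 CPM) and *Asf1b* (42.0 CPM) and below the other members.

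**Figure D1:**
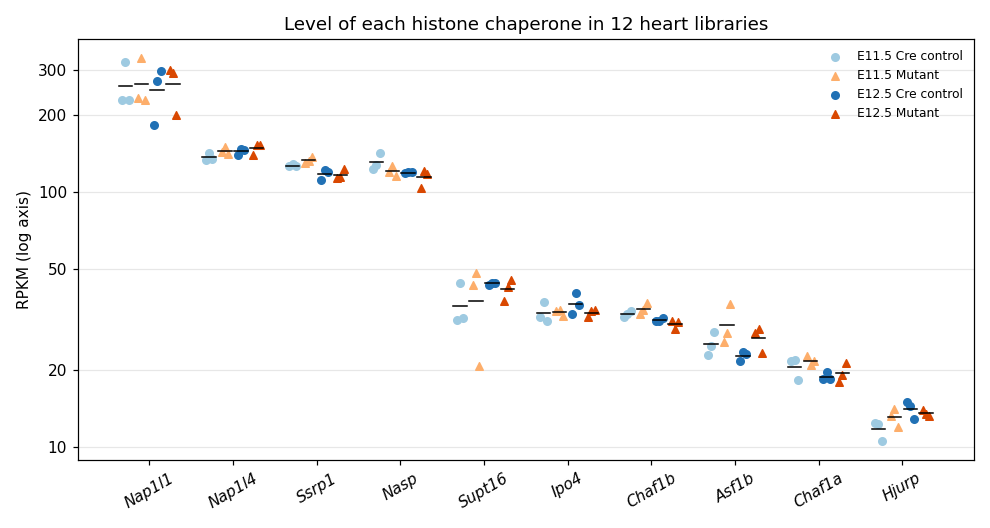
RPKM of each chaperone gene (log axis) in the 12 libraries, with 1 point per library, circles for Cre control, triangles for Mutant, pale for E11.5, dark for E12.5, and a line at each group mean of 3 libraries. The groups of a gene lie close together beside the distance between genes, apart from 1 low E11.5 Mutant library of *Supt16* (20.7 RPKM) and the wide spread of *Nap1l1* within every group.

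The first question was whether these genes differed between Mutant and Cre control hearts. No member passed the thresholds at E11.5 (an adjusted p no higher than 0.05 and 1.5-fold or more), where 0.115% of the 12197 genes tested did, and none had an unadjusted p under 0.05 (10.2% of all genes). At E12.5 none passed either, where 2.95% of 12257 genes did, or 5.0% by the adjusted p alone. Only *Asf1b* had an unadjusted p under 0.05 there (21.4% of all genes, 11.2% in the higher direction). DESeq2 and limma also called none at either stage. The precision allowed a statement on size: at E12.5 the 95% interval of all 10 members lay within 1.5-fold in both directions (75.0% of all genes), and at E11.5 that of 8 did (56.2% of all genes), the exceptions being *Asf1b* and *Supt16*.

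**Figure D2:**
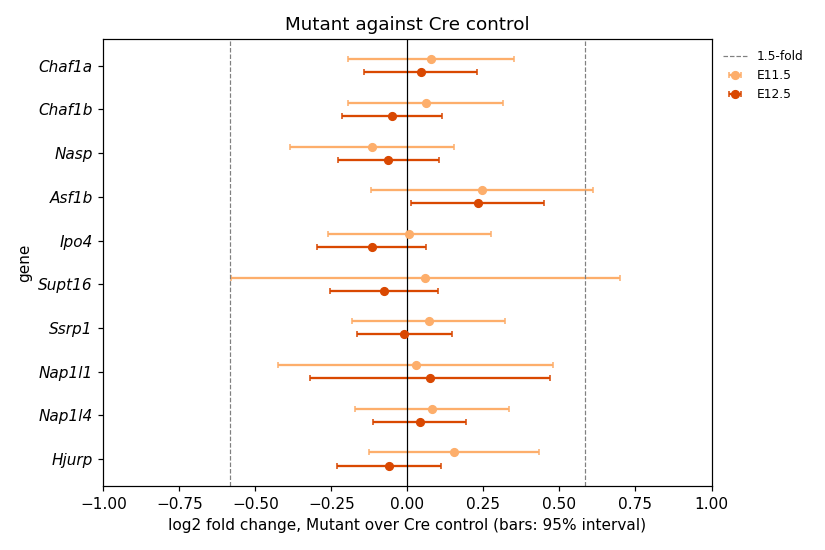
Log2 fold change of Mutant over Cre control hearts for each gene, with 95% intervals, at E11.5 (pale) and E12.5 (dark). Dashed lines mark 1.5-fold. All intervals at E12.5 lie between the dashed lines and that of *Asf1b* starts just above 0. At E11.5 those of *Asf1b* and *Supt16* reach past the upper line.

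*Chaf1a*, the large subunit of CAF-1 (chromosome 17, 56040416 to 56068026, GRCm38, plus strand), read 21.7, 21.9 and 18.4 RPKM in E11.5 Cre control hearts and 22.7, 21.0 and 21.7 RPKM in E11.5 Mutant hearts. Its E12.5 values were 18.4, 19.7 and 18.6 RPKM in Cre control and 17.9, 19.2 and 21.3 RPKM in Mutant hearts. The genotypes overlapped at both stages, with log2 fold changes of 0.08 ± 0.12 and 0.04 ± 0.08 (SE, adjusted p = 0.915 and 0.811). In the GENCODE annotation its exons share 4648 bases with those of *Ubxn6* on the opposite strand, a gene at 40.4 to 53.6 RPKM, and since the use of strand in counting is not stated, reads of these genes cannot be told apart there. The length behind the *Chaf1a* values, 3308 bases, is under the 8854 exonic bases of that annotation.

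*Chaf1b*, the middle subunit (chromosome 16, 93883901 to 93906115, plus strand), read 32.4, 33.3 and 34.2 RPKM in E11.5 Cre control hearts and 33.1, 34.5 and 36.8 RPKM in E11.5 Mutant hearts. The E12.5 libraries held 31.0, 31.2 and 31.9 RPKM in Cre control and 31.2, 29.0 and 30.8 RPKM in Mutant hearts. Its log2 fold change was 0.06 ± 0.11 at E11.5 and -0.05 ± 0.07 at E12.5 (SE, adjusted p = 0.936 and 0.741), and its libraries varied little, with a mean coefficient of variation within groups of 3.38%, lower than in all but 1.07% of the 6640 genes with a mean of at least 10 RPKM. The small CAF-1 subunit, *Rbbp4*, which other chromatin complexes share, had log2 fold changes of 0.01 ± 0.11 and 0.06 ± 0.07 (SE, adjusted p = 0.991 and 0.683).

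Among the genes that supply H3-H4, *Nasp* (chromosome 4, 116601052 to 116627941, minus strand) read 122, 127 and 141 RPKM in E11.5 Cre control hearts and 119.6, 126 and 115 RPKM in E11.5 Mutant hearts. Values at E12.5 were 118, 119.6 and 119 RPKM in Cre control and 103, 121 and 117 RPKM in Mutant hearts. The log2 fold changes, -0.12 ± 0.12 and -0.06 ± 0.08 (SE, adjusted p = 0.853 and 0.675), were below 0 at both stages, and the genotypes overlapped. A processed pseudogene on another locus, *Gm6986*, matches 1222 bases of *Nasp* transcripts at 90.7% identity.

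*Ipo4*, the importin (chromosome 14, 55625400 to 55637895, minus strand), read 32.3, 37.1 and 31.1 RPKM in E11.5 Cre control hearts and 33.98, 34.4 and 32.7 RPKM in E11.5 Mutant hearts. A day later it read 33.2, 40.0 and 36.1 RPKM in Cre control and 32.3, 34.2 and 34.4 RPKM in Mutant hearts. The genotypes overlapped at both stages, with log2 fold changes of 0.01 ± 0.12 and -0.12 ± 0.08 (SE, adjusted p = 0.995 and 0.445). Its exons share 2583 bases with *Gm49378*, a gene model on the same strand, which the table does not list apart.

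*Asf1b* (chromosome 8, 83955507 to 83970197, plus strand), the ASF1 paralogue most tied to dividing cells, read 22.9, 24.9 and 28.2 RPKM in E11.5 Cre control hearts and 25.9, 28.1 and 36.4 RPKM in E11.5 Mutant hearts. At E12.5 it read 21.8, 23.6 and 23.1 RPKM in Cre control and 28.1, 29.1 and 23.3 RPKM in Mutant hearts. At E12.5 a pair of the Mutant libraries lay above all Cre control libraries and the third lay between them. The log2 fold change at E12.5 was 0.23 ± 0.10 (SE), or 1.17-fold with a 95% interval of 1.01 to 1.37, with an unadjusted p of 0.0409 and an adjusted p of 0.211 by edgeR's quasi-likelihood test. At E11.5 it was 0.25 ± 0.16 (SE, adjusted p = 0.708). The E11.5 value rested on E11.5 Mutant 3, since without that library it was 0.08, and with sex as a covariate, a fit that sets the 1 male Mutant library, number 3, against the all-male Cre control, it was 0.53 (adjusted p = 0.142). Averaged over both stages, the Mutant effect on *Asf1b* was 0.24 ± 0.10 (SE, log2, adjusted p = 0.178), and 0.16 without E11.5 Mutant 3. It was the only member with an unadjusted p under 0.05 in that average (19.5% of all genes, 9.98% in the higher direction).

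Its paralogue *Asf1a* encodes a protein that the paper lists in the HIRA complex. *Asf1a* read 17.8, 18.3 and 21.8 RPKM in E12.5 Cre control hearts and 24.1, 26.2 and 21.7 RPKM in E12.5 Mutant hearts. The libraries overlapped only through the highest Cre control and the lowest Mutant value. On the log2 scale the difference was 0.32 ± 0.10 (SE, adjusted p = 0.109) at E12.5 and 0.14 ± 0.12 (SE, adjusted p = 0.817) at E11.5, so neither ASF1 gene passed the threshold. *Cenpa* and *Pcna*, the cargo of HJURP and the anchor of CAF-1, had adjusted p of 0.556 and 0.762 at E12.5.

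The subunits of FACT behaved differently within groups. *Ssrp1* (chromosome 2, 85037234 to 85047109, plus strand) read 126, 128 and 126 RPKM in E11.5 Cre control hearts and 129.9, 132 and 137 RPKM in E11.5 Mutant hearts. The Mutant libraries at E11.5 all lay above the Cre control libraries, the only member for which the genotypes did not overlap at that stage, where 16.3% of all genes did not overlap and 8.31% were higher without overlap. The difference was small, with a log2 difference of 0.07 ± 0.11 (SE, adjusted p = 0.92). At E12.5 *Ssrp1* read 111, 121 and 119 RPKM in Cre control and 113, 114 and 123 RPKM in Mutant hearts, the genotypes overlapped as for all 10 members at that stage (26.2% of all genes did not overlap), and the difference on the log2 scale came to -0.01 ± 0.07 (SE, adjusted p = 0.946). Its mean coefficient of variation within groups was 3.18%, where the median of the 6640 genes was 9.31%.

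*Supt16*, the large subunit of FACT (chromosome 14, 52160419 to 52197239, minus strand), varied more, with a mean coefficient of variation within groups of 17.4%. It read 31.5, 44.0 and 32.0 RPKM in E11.5 Cre control hearts and 43.1, 48.2 and 20.7 RPKM in E11.5 Mutant hearts. In E11.5 Mutant 3 it therefore lay at the lowest value of all 12 libraries, while the other 2 Mutant libraries lay near or above the highest Cre control library. The log2 fold change of 0.06 ± 0.28 (SE, adjusted p = 0.975) became 0.34 without E11.5 Mutant 3 (adjusted p = 0.317) and -0.78 with sex as a covariate, which again rests on number 3 (adjusted p = 0.132), so no direction can be read at E11.5. The E12.5 libraries gave 43.3, 44.1 and 43.9 RPKM in Cre control and 37.2, 42.3 and 45.1 RPKM in Mutant hearts, with a log2 difference of -0.08 ± 0.08 (SE, adjusted p = 0.631). *Rpgrip1*, whose exons share 1057 bases with *Supt16* on the opposite strand, was at 0.278 RPKM at most.

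*Nap1l1* (chromosome 10, 111473192 to 111498142, plus strand) had the widest spread, with a mean coefficient of variation within groups of 22.0%, above 97.7% of the 6640 genes. It read 228, 321 and 229 RPKM in E11.5 Cre control hearts and 232, 333 and 229 RPKM in E11.5 Mutant hearts. One day later it read 182, 271 and 296 RPKM in Cre control and 299, 291 and 199 RPKM in Mutant hearts. Each group held both low and high libraries, and the genotypes overlapped almost fully, with log2 fold changes of 0.03 ± 0.20 and 0.07 ± 0.18 (SE, adjusted p = 0.985 and 0.847). The processed pseudogene *Gm4204*, at another locus, matches 1234 bases of *Nap1l1* transcripts at 99.5% identity and is not listed in the table, so how its reads were assigned is uncertain.

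*Nap1l4* (chromosome 7, 143513579 to 143549090, minus strand) was steady beside it, at 133, 142 and 134 RPKM in E11.5 Cre control hearts and 143, 149.7 and 139.8 RPKM in E11.5 Mutant hearts. At E12.5 it read 139, 146 and 146 RPKM in Cre control and 139, 152 and 153 RPKM in Mutant hearts. The log2 fold changes were 0.08 ± 0.11 and 0.04 ± 0.07 (SE, adjusted p = 0.909 and 0.789), and the mean coefficient of variation within groups was 3.76%. *Set*, a chaperone of the same fold, had log2 fold changes of 0.06 ± 0.13 and 0.01 ± 0.08 (SE, adjusted p = 0.946 and 0.964).

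*Hjurp*, the CENP-A chaperone (chromosome 1, 88262471 to 88277633, minus strand), read 12.5, 12.3 and 10.6 RPKM in E11.5 Cre control hearts and 13.2, 14.1 and 12.0 RPKM in E11.5 Mutant hearts. At E12.5 it read 15.01, 14.5 and 12.9 RPKM in Cre control and 14.01, 13.5 and 13.2 RPKM in Mutant hearts. Mutant values ran above the Cre control mean at E11.5 and inside the Cre control range at E12.5, with log2 fold changes of 0.15 ± 0.12 and -0.06 ± 0.08 (SE, adjusted p = 0.795 and 0.706).

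**Figure D3:**
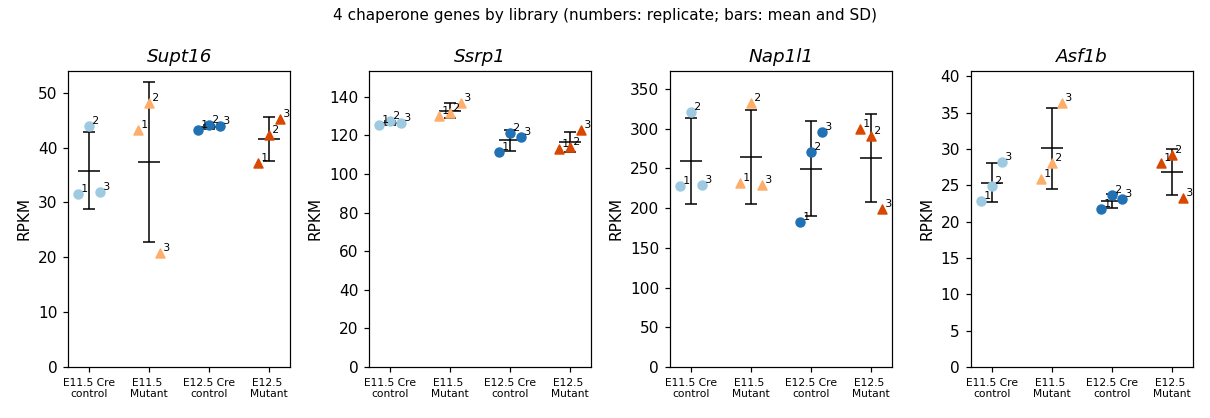
RPKM of *Supt16*, *Ssrp1*, *Nap1l1* and *Asf1b* by group, with 1 point per library marked by its replicate number, and bars for the mean and SD of 3 libraries. *Supt16* at E11.5 is spread by Mutant replicate 3 (20.7 RPKM), *Ssrp1* is tight in each group, *Nap1l1* ranges from 182 to 333 RPKM with no separation of the groups, and 2 of 3 E12.5 Mutant libraries of *Asf1b* lie above the Cre control libraries.

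The Mutant effects at the stages were then compared with each other. None of the 10 members was called as different between stages by edgeR's quasi-likelihood test, and neither was any other of the 12270 genes (0.0%, with 551 genes at an unadjusted p under 0.05). DESeq2 called 40 genes, limma none, and edgeR without E11.5 Mutant 3 called 10. No member had an unadjusted p under 0.05 here either (4.49% of all genes). *Hjurp* had the largest difference in size, a Mutant effect lower by 0.21 ± 0.14 (SE, log2) at E12.5 (adjusted p = 0.956). The 95% interval lay within 1.5-fold for 8 members (46.3% of all genes), with *Supt16* and *Nap1l1* as the exceptions. Without E11.5 Mutant 3 the difference of *Supt16* moved from -0.14 to -0.41 (adjusted p = 0.261). Averaged over the stages, none of the 10 passed the thresholds (3.38% of 12270 genes did, and 6.89% by the adjusted p alone), and the intervals of all 10 lay within 1.5-fold (78.8% of all genes).

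The second question was how these genes moved as the heart grew from E11.5 to E12.5. These comparisons use the same libraries as the genotype comparisons. In Cre control hearts none of the 10 passed the thresholds, where 5.28% of 12252 genes did, and the adjusted p alone called none (11.4% of all genes). *Hjurp* and *Supt16*, both higher at E12.5, had an unadjusted p under 0.05 (32.8% of all genes, 16.6% in the higher and 16.2% in the lower direction). The log2 fold changes ran from -0.15 (*Asf1b*) to 0.29 (*Supt16*), and all 10 intervals lay within 1.5-fold (57.9% of all genes). In Mutant hearts none passed (0.556% of 12238 genes did) and none had an unadjusted p under 0.05 (9.27% of all genes), and 9 intervals lay within 1.5-fold (61.6% of all genes), *Supt16* being the exception.

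Within that narrow range, 4 members did not overlap between stages in Cre control hearts, where 37.4% of all genes did not (18.9% higher and 18.5% lower at E12.5). *Hjurp* was higher in every E12.5 library, at 14.1 ± 1.10 against 11.8 ± 1.04 RPKM (SD, n = 3 each), with a log2 difference of 0.26 ± 0.10 (SE, adjusted p = 0.109). With sex as a covariate, a fit that sets 1 male E12.5 library against the all-male E11.5 group, the *Hjurp* difference was 0.13. *Chaf1b* (31.4 ± 0.471 against 33.3 ± 0.893 RPKM), *Nasp* (119 ± 0.947 against 130.2 ± 9.75 RPKM) and *Ssrp1* (117 ± 5.23 against 126 ± 1.09 RPKM) were lower in every E12.5 library. Their log2 fold changes were -0.09 ± 0.09, -0.13 ± 0.09 and -0.11 ± 0.09 (SE, adjusted p = 0.519, 0.345 and 0.42). In Mutant hearts *Chaf1b* (30.3 ± 1.20 against 34.8 ± 1.87 RPKM) and *Ssrp1* (117 ± 5.36 against 133 ± 3.74 RPKM) again did not overlap, the only members of the 10 (17.4% of all genes, 8.02% lower), at -0.21 ± 0.10 and -0.20 ± 0.10 on the log2 scale (SE, adjusted p = 0.596 and 0.612).

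*Supt16* stood at 35.8 ± 7.07 RPKM at E11.5 and 43.7 ± 0.406 RPKM at E12.5 in Cre control hearts (SD, n = 3 each), a log2 difference of 0.29 ± 0.13 (SE, adjusted p = 0.15). The E11.5 library number 2, at 44.0 RPKM, lay inside the E12.5 values. With that library left out, the difference grew to 0.45 and the adjusted p 0.00777, still under 1.5-fold, and that was the only setting in which any member had an adjusted p of at most 0.05 in any comparison. In Mutant hearts the change was 0.14 ± 0.26 (SE, adjusted p = 0.877), and -0.14 without E11.5 Mutant 3 (adjusted p = 0.603).

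**Figure D4:**
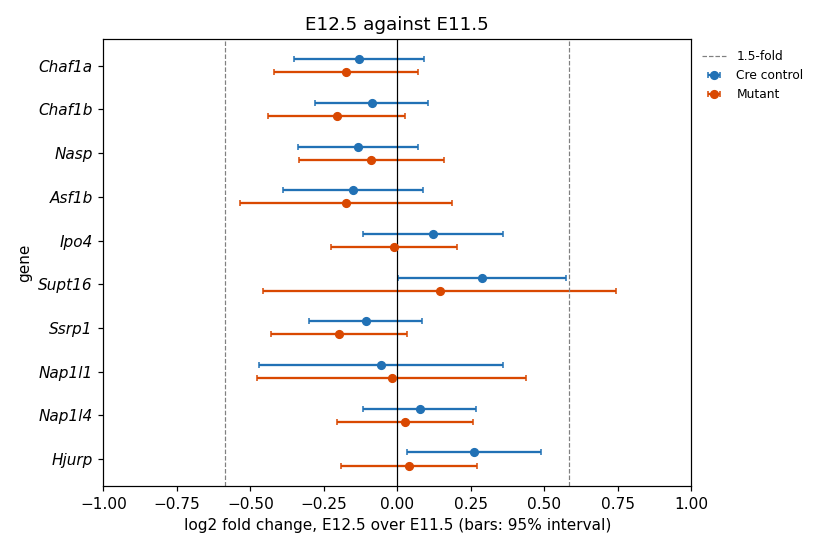
Log2 fold change of E12.5 over E11.5 for each gene, with 95% intervals, in Cre control (blue) and Mutant (orange) hearts. Dashed lines mark 1.5-fold. All Cre control intervals lie between the dashed lines, those of *Supt16* and *Hjurp* start just above 0, and the widest is that of *Supt16* in Mutant hearts.

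Genes that work beside these chaperones gave a similar picture between genotypes. None of the 15 other genes of CAF-1 and H3-H4 supply, the 6 of H3.3 deposition, the 17 transcription-linked and H2A-H2B chaperones, the 11 CENP-A loading genes tested, the 42 replication and S phase genes or the 25 G2 and mitosis genes was called at E11.5 or at E12.5. At an unadjusted p under 0.05 there were 2 at E11.5 (10.2% of all genes), both replication genes and both higher, *Rfc5* (0.35 ± 0.12) and *Ung* (0.31 ± 0.13) (SE, log2, adjusted p = 0.34 and 0.452). At E12.5, 3 of 42 replication genes and 6 of 25 mitosis genes were lower at an unadjusted p under 0.05, where 10.2% of all genes were, and none of these was higher. Of the 15 H3-H4 supply genes 1 was higher, *Asf1a*, and 1 lower, *Tonsl*, a reader of new H4 at the fork, at -0.24 ± 0.09 (SE, log2, adjusted p = 0.15), and the other 3 lists had none. The difference of the Mutant effect on *Tonsl*, E12.5 minus E11.5, was -0.48 ± 0.16 (SE, log2, adjusted p = 0.828). The median log2 fold changes of the replication and mitosis lists were -0.03 and -0.05, beside 0.00 over all genes tested. *Rrm2*, a subunit of ribonucleotide reductase, stood at -0.25 ± 0.08 (SE, adjusted p = 0.116) and *Bub1b*, a spindle checkpoint kinase, at -0.18 ± 0.07 (SE, adjusted p = 0.19). *Mki67*, the proliferation antigen, stood at -0.19 ± 0.08 (SE, adjusted p = 0.215).

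Between stages in Cre control hearts, several of these genes passed the adjusted p, all but *Ubn2* under 1.5-fold. Of all genes 11.4% did, against 3 of 42 replication, 1 of 15 H3-H4 supply and 2 of 25 mitosis genes, so these lists lay below that share. The lists above it were CENP-A loading (2 of 11), H3.3 deposition (2 of 6) and transcription-linked and H2A-H2B genes (3 of 17), each with few genes called. The stages differ there in the share of male libraries, 3 of 3 against 1 of 3. A fit with sex as a covariate therefore sets 1 male E12.5 library against the all-male E11.5 group. Stage and sex cannot be told apart here except through that library. Of 42 replication genes, 3 were lower and none higher at an adjusted p of at most 0.05, with a median log2 fold change of -0.17 beside 0.01 over all genes. *Orc6*, of the origin recognition complex, was lower by a log2 fold change of -0.52 ± 0.12, *Rpa3*, of the single-strand binding complex, by -0.55 ± 0.13 and *Rfc2*, of the clamp loader, by -0.34 ± 0.10 (SE, adjusted p = 0.0287, 0.0307 and 0.0486). *Pcna* stood at -0.39 ± 0.12 (SE, adjusted p = 0.0594). Of 11 CENP-A loading genes, 2 were lower and none higher, *Mis18a*, which licenses the centromere for HJURP, at -0.52 ± 0.11 and *Cenph* at -0.40 ± 0.11 (SE, adjusted p = 0.0277 and 0.0452). *Cenpa* stood at -0.14 ± 0.10 (SE, adjusted p = 0.387), and 3 of the 11 had a log2 fold change above 0, as *Hjurp* had.

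In the same comparison 2 of 6 H3.3 deposition genes were higher and none lower. These were *Ubn2* and *Ubn1*, subunits of the HIRA complex, at 0.76 ± 0.15 and 0.36 ± 0.10 (SE, adjusted p = 0.0216 and 0.0414). Of 17 transcription-linked and H2A-H2B chaperones, 2 were higher, *Srcap* (0.53 ± 0.11) and *Ino80* (0.46 ± 0.12), remodellers of H2A.Z nucleosomes, and 1 was lower, the nucleolar chaperone *Npm1* (-0.54 ± 0.11) (SE, adjusted p = 0.0261, 0.0352 and 0.0252). Of the 15 genes of H3-H4 supply, *Tonsl* was higher at 0.36 ± 0.10 (SE, adjusted p = 0.0479). Of 25 mitosis genes 2 were higher and none lower, *Hmmr* (0.49 ± 0.12) and *Prc1* (0.35 ± 0.10) (SE, adjusted p = 0.0335 and 0.0494). In Mutant hearts none of these 6 lists had a gene called at an adjusted p of at most 0.05. At an unadjusted p under 0.05, 10 of 42 replication genes were lower there (3.89% of all genes), with a median of -0.18. In Cre control hearts 15 of the 42 were lower at that p (16.2% of all genes) and 1 was higher (16.6%). The difference of the stage changes between genotypes passed for none of these genes.

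The profile of each member over the 12 libraries was compared with all genes of at least 5 RPKM, as a description that mixes stage, genotype and library. *Chaf1b* and *Ssrp1* were the members most alike (Pearson r = 0.86, n = 12 libraries), and *Chaf1a* and *Ssrp1* followed at 0.762. *Asf1b* and *Supt16* were the most opposed at -0.649. E11.5 Mutant 3 held both the highest *Asf1b* value (36.4 RPKM) and the lowest *Supt16* value (20.7 RPKM) of the 12 libraries. That library therefore weighs on every r of *Supt16*, and no r was computed without it. The median over the 45 pairs was 0.0524, so the 10 chaperones did not share 1 profile. Outside the members, *Supt16* was closest to *Gpam* (r = 0.977), *Appbp2* and *Dbt*, *Nasp* to *D3Ertd751e* (0.938), *Asf1b* to *Uchl3* (0.935), *Hjurp* to *Senp1* (0.952), *Ssrp1* to *Txndc5* (0.928), *Chaf1b* to *Tmem14c* (0.929), *Chaf1a* to *Igf2bp1* (0.902), *Nap1l4* to *Prmt5* (0.896), *Ipo4* to *Pus7* (0.87) and *Nap1l1* to *E2f7* (0.866).

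Many genes of the cell cycle carry E2F, CHR or CCAAT elements before their start, and the 250 bases before each RefSeq start (GRCm38.p6) were searched on both strands for E2F (TTTCCCGC, TTTCGCGC, TTTGCCGC or TTTGGCGC), CHR (TTTGAA or TTCGAA) and CCAAT, none of which contains another. Of the members 9 had an entry. An E2F match was held by 1 of the 9 (1.86% of all 32851 promoters), a CHR match by 4 (17.1%) and a CCAAT match by 5 (33.8%). Members are counted by gene and the shares by promoter, and *Ssrp1*, which held the E2F match, has 2 promoters. *Asf1b* held 4 CCAAT matches and 1 CHR match, and *Chaf1b* and *Supt16* held none of the 3 elements. The following stretches are written along the gene's strand, with matches in capitals. They are from members that did not overlap between stages in Cre control hearts and had a match. Of all genes 37.4% did not overlap there, so this was only a rule for what to print. Matches of other members, such as those of *Asf1b*, are not shown. A further CHR match of *Ssrp1* is not shown. That of *Nasp* is chr4:116628036-116628150 (minus strand), those of *Ssrp1* are chr2:85036970-85037027 and chr2:85037201-85037253 (plus strand), the latter before the downstream of its RefSeq starts, and that of *Hjurp* is chr1:88277731-88277787 (minus strand).
Nasp, CCAAT, CHR and CCAAT: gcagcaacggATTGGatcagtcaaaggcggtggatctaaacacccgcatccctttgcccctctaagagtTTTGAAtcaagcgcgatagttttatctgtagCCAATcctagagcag
Ssrp1, CHR: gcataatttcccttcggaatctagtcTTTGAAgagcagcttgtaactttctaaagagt
Ssrp1, E2F: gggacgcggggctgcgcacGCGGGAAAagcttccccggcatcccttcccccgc
Hjurp, CCAAT: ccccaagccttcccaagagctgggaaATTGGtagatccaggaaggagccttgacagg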

How the data were processed

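RNA-seq of 12 embryonic heart libraries was analysed, in 4 groups of 3. Per the methods, paired-end NextSeq reads were aligned with BOWTIE (Bowtie2 and mm10 in the submitters' processing notes) and normalised with DESeq. The GEO design text names another instrument, and the counting program, the annotation and the use of strand are not given in the sources used here. The authors deposited a table named RPKM. As deposited by the authors, its values are a score, made of whole counts times gene length times a factor of the library. The authors also deposited the average counts (expected counts) of each group, which fix those factors. Whole counts were recovered for 17827 genes, 100% within 1e-06 of a whole number, and another 1597 genes had no count. The recovery was tested on simulated data. The fold change and p columns of the authors' comparisons were not used.

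Genes with a mean of at least 0.5 RPKM were tested with edgeR 4.0.16 (R 4.3.3, TMM scaling, quasi-likelihood test, Benjamini-Hochberg over all genes tested), and the thresholds for a changed gene were 0.05 on the adjusted p and 1.5 on the fold. Standard errors came from edgeR's F and intervals from the t distribution with its degrees of freedom. CPM and RPKM were computed from the recovered counts, not taken from the deposited score, and were scaled by TMM over the 12 libraries. RPKM were also divided by the gene length. Alternatives were DESeq2 1.42.0, limma 3.58.1 on log2(RPKM + 0.5), other filters, scalings and covariates, and leaving out libraries. An exact permutation test of 3 against 3 cannot go under a p of 0.1, so none is given. The edgeR steps were tested on simulated data with known changes. Named genes were all members, *Hira*, 6 partner genes, up to 3 genes of lowest p per list and the genes of most similar profile. The members and lists were chosen with earlier results of these data known. Positions of the members are those given with the authors' comparisons, and strands, exonic lengths and overlaps are from GENCODE vM21 (GRCm38).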

Additional observations from a re-analysis of the deposited data

How the results depend on the processing

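In each of the 6 comparisons 0 members were called, and all 112 alternatives, among them DESeq2, limma, other filters and scalings, sex as a covariate and each library left out in turn, also gave 0. Of 1060 single-gene alternatives none was called, 53 had an unadjusted p under 0.05 and 68 had the opposite sign, 65 of these where the log2 fold change was under 0.1 in size. Replicate numbers are shared by the groups, but in no comparison did all 3 same-numbered pairs deviate together (r from -0.21 to 0.526), so the numbers were not taken as pairs. With the replicate block 0 members were called in each comparison, and the genes called among all genes went from 14 to 73 at E11.5 and from 68 to 36 between stages in Mutant hearts. With the fold threshold kept, that background moved with other settings too, at E11.5 to 248 by DESeq2, 221 with all 12 libraries in the fit and 0 to 15 with a library left out. At E12.5 it ran from 132 to 494 around 362, and for the average of both stages from 125 to 507 around 415. Between stages it ran from 1 to 227 in Mutant hearts and from 44 to 1407 around 647 in Cre control hearts. That last range leaves out the fit with sex, which rests there on 1 male E12.5 library. Counting error is part of the spread of the less covered members, such as *Asf1b* with 531 to 793 counts in a library and *Chaf1b* with 815 to 1093.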
